A study of Homo sapiens with 6 samples.

Results

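Long intergenic non-coding RNAs with systematic LINC symbols were examined in PANC1OR, an oxaliplatin-resistant subline, and in PANC1, the human pancreatic ductal carcinoma line from which it came. PANC1OR had been obtained by passaging PANC1 in rising oxaliplatin, a platinum drug that forms DNA adducts, until the cells proliferated stably without it, and the PANC1 cultures were untreated. Each line was represented by 3 cultures, with 1 RNA library sequenced per culture, and no source used here states whether the drug was present at harvest. PANC1OR is a single subline, and p-values therefore describe spread among its cultures, not among independently selected lines. Of 58735 gene rows, 2242 carried a symbol made of LINC and digits, and 192 of these reached a mean of at least 1 CPM (counts of the gene per 1000000 counts of the library) in PANC1OR or in PANC1. The other 2050 were below that level in both lines. Because the level in these libraries chose the genes, the levels themselves are given as a description.

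LINC symbols are given to transcribed genes that lie apart from protein-coding genes, yield RNAs without a recognized open reading frame and have no functional name of their own. Most such RNAs are spliced and polyadenylated like messenger RNA, are less abundant, and differ more between cell types. Some have been described as scaffolds for chromatin or signalling proteins, others as transcripts of enhancer regions, and for many no function is known.

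The level was reached in both lines by 131 of the 192 genes, in PANC1OR but not PANC1 by 30, and in PANC1 but not PANC1OR by 31. Among the genes just inside the level, LINC02026 had 0.728 CPM in PANC1OR and 1.01 CPM in PANC1, LINC02985 had 1.01 CPM in PANC1OR and 0.329 CPM in PANC1, and LINC00926 had 1.02 CPM in PANC1OR and 0.684 CPM in PANC1. Just outside it, LINC01347 had 0.9998 CPM in PANC1OR and 0.794 CPM in PANC1, LINC01433 had 0.170 CPM in PANC1OR and 0.999 CPM in PANC1, and LINC00506 had 0.991 CPM in PANC1OR and 0.895 CPM in PANC1. GENCODE release 44 lists 187 of the 192 as long non-coding RNA, 4 as transcribed unprocessed pseudogenes and 1 as a transcribed unitary pseudogene. They lie on 23 chromosomes, with 32 on chromosome 1, 21 on chromosome 2 and 15 on chromosome 7.

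The libraries held 12623721 to 26394388 reads in PANC1OR and 10199268 to 15875431 reads in PANC1. PANC1OR replicate 3 stood apart by base composition. Its genes above 60% GC had a median log2 difference of 1.24 from replicates 1 and 2, and its genes below 40% GC one of -1.03. PANC1 replicate 2 differed in the same direction and less, by 0.21 and -0.37 from the rest of its line. Among the 192 genes, the 86 above 50% GC had a median difference of 0.45 in PANC1OR replicate 3 and the 59 below 45% GC one of -0.71, while in PANC1 replicate 2 these were 0.01 and -0.41, and the results were recomputed without these libraries and with GC offsets. Keratin genes of duct epithelium were present in both lines, with KRT8 at 422 ± 231.7 CPM in PANC1OR and 475 ± 223 CPM in PANC1 and KRT18 at 312 ± 101 CPM in PANC1OR and 334 ± 84.0 CPM in PANC1 (SD, n = 3 each). KRT19, another duct keratin, had 22.9 ± 10.8 CPM in PANC1OR and 321 ± 101 CPM in PANC1. INS, GCG and CD3E, which mark islet cells and T cells, had 0 reads in all 6 libraries. PTPRC, a leukocyte marker, had 0.297 CPM in PANC1OR and 0.0423 CPM in PANC1, and CD68, a macrophage marker, had 1.54 CPM in PANC1OR and 0.574 CPM in PANC1. Of the fibroblast markers, DCN had 0.0126 CPM in PANC1OR and 0.0213 CPM in PANC1, PDGFRB had 1.04 CPM in PANC1OR and 0.531 CPM in PANC1, and COL1A1 had 169 CPM in PANC1OR and 87.4 CPM in PANC1. The part of other cells in the results was not tested.

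The promoter windows of 4 of the genes are shown because the results turn on them. LINC02870 and LINC01843 are the 2 genes with the highest level in PANC1 among those under 1 CPM in PANC1OR, LINC00941 has the highest CPM of the genes called higher in PANC1OR, and LINC01273 lies beside CEBPB. Each window runs from 250 bases before to 50 bases after the RefSeq start on GRCh38.p14, 5′ to 3′, and capitals mark CG dinucleotides, the sites of DNA methylation.
LINC02870 promoter window, chr10:132444939-132445238, plus strand: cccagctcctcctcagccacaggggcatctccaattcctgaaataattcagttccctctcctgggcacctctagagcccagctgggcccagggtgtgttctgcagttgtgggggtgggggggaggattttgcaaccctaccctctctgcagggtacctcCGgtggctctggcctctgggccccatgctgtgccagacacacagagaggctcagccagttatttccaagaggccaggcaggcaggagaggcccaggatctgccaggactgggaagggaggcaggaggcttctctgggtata
LINC01843 promoter window, chr5:134506302-134506601, plus strand: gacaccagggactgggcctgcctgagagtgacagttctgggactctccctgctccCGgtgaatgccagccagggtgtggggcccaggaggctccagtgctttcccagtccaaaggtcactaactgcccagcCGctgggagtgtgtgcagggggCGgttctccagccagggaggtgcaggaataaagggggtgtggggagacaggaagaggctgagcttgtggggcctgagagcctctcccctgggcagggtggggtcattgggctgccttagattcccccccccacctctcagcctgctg
LINC00941 promoter window, chr12:30795431-30795730, plus strand: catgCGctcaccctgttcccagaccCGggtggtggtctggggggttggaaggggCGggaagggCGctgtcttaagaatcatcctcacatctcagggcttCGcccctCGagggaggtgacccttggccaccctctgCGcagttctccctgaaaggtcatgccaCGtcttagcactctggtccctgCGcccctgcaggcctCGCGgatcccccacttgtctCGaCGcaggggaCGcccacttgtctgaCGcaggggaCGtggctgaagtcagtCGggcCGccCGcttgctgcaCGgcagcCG
LINC01273 promoter window, chr20:50172320-50172619, plus strand: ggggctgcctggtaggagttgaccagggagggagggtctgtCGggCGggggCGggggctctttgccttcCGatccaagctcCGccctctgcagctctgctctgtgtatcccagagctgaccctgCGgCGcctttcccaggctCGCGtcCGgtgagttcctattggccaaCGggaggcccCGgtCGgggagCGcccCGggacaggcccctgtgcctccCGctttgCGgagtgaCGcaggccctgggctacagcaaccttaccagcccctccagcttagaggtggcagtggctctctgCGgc
The LINC02870 window holds 1 CG, the LINC01843 window 3, the LINC00941 window 21 and the LINC01273 window 19. These 4 genes were picked by their values, so nothing is read from the difference. RefSeq windows were found for 133 of the 192 genes, with a median of 14 CG, and the median over all 27305 windows was also 14. The median was 12 for genes at the level in PANC1OR only, 11 for PANC1 only and 17 for both lines. At most 3 CG were present in 27 of the 133 windows (20.3%) and in 25.3% of all windows. The RefSeq starts of LINC02870 and of LINC03068 on the opposite strand lie 207 bases apart and point away from each other, and their windows share 294 of 300 bases. RefSeq and GENCODE start LINC01843 at the same base, while their starts of LINC02870, LINC00941 and LINC01273 are 862, 223 and 761 bases apart.

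Summed over the 192 genes, these RNAs came to 1164, 1188 and 1042 CPM in the PANC1OR libraries, and 1299, 1077 and 1318 CPM in the PANC1 libraries. The ranges overlapped. In RNA from whole cultures, fewer cells that express a gene and less of its RNA per cell cannot be told apart. Over the genes at 1 CPM in a line, the median coefficient of variation between cultures was 23.9% for the 161 in PANC1OR and 19.9% for the 162 in PANC1.

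LINC00511 (ENSG00000227036, chromosome 17, 72290091 to 72640472, minus strand), reported in several carcinomas as a growth-promoting RNA, had the highest CPM of the set in both lines. It had 104, 114 and 108 CPM in PANC1OR and 183, 117 and 195 CPM in PANC1. All PANC1OR libraries lay below all PANC1 libraries, with PANC1 replicate 2 close to the PANC1OR range. The log2 fold change of -0.59 ± 0.20 (SE; PANC1OR minus PANC1, as throughout) was not called (adjusted p = 0.0896, edgeR's quasi-likelihood test with Benjamini-Hochberg adjustment over 18751 tested genes). Without PANC1OR replicate 3 the adjusted p was 0.0215, and over all 15 fits it ranged between 1.61e-07 and 0.323.

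Of the other genes of high CPM, LINC00665, from which a micropeptide has been reported, had 34.4, 34.3 and 38.0 CPM in PANC1OR and 46.6, 50.3 and 47.6 CPM in PANC1. The groups did not overlap, and the change was not called (log2 fold change -0.44 ± 0.19, adjusted p = 0.16). A near-identical sequence covering 81.9% of its longest transcript lies in LINC01535, so the division of reads between them is uncertain. LINC02210 averaged 29.1 ± 1.76 CPM in PANC1OR and 19.9 ± 2.89 CPM in PANC1, and LINC00667 averaged 25.6 ± 4.19 CPM in PANC1OR and 29.7 ± 3.99 CPM in PANC1. LINC00641 averaged 23.1 ± 8.78 CPM in PANC1OR and 28.9 ± 5.40 CPM in PANC1. None of these 3 was called, with adjusted p-values of 0.108, 0.544 and 0.535.

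Per kilobase of exon the order was different. The median over the 192 genes was 0.787 CPM per kilobase in PANC1OR and 0.885 CPM per kilobase in PANC1. The 3 highest in both lines were LINC00674, LINC01145 and LINC00680, whose annotated exons span only 0.16, 0.143 and 0.181 kilobases. Next came LINC03057, beside the homeobox gene HOXB7, with 11.2 CPM per kilobase in PANC1OR and 19.1 CPM per kilobase in PANC1. Its libraries had 14.1, 15.1 and 24.2 CPM in PANC1OR and 29.6, 29.2 and 32.6 CPM in PANC1. The groups did not overlap, with PANC1OR replicate 3 nearest to PANC1, and the change was not called (log2 fold change -0.77 ± 0.27, adjusted p = 0.092).

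**Figure D1:**
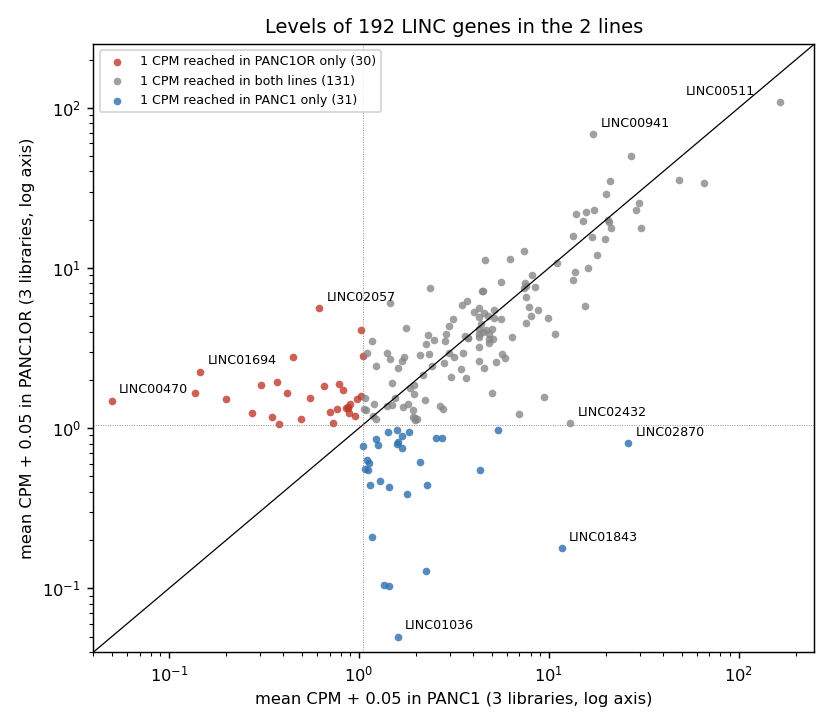
Mean level of each of the 192 LINC genes in PANC1OR (vertical axis) against PANC1 (horizontal axis), as CPM plus 0.05 on log axes, 1 point per gene, with colour giving the line or lines in which 1 CPM was reached. LINC00511 lies at the top right with 109 CPM in PANC1OR and 165 CPM in PANC1, and LINC02870 and LINC01843 lie far to the lower right.

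Among the 131 genes at 1 CPM in both lines, 10 were called higher in PANC1OR and 11 lower, at an adjusted p under 0.05, and 110 were not called. These 16.0% compare with 15.0% of all 15078 tested genes at that level in both lines (9.07% higher and 5.96% lower) and with 11.0% of 1715 other long non-coding RNA genes at that level (6.3% higher and 4.72% lower). The share near the background is no result about the LINC genes. Their median log2 fold change was -0.06, against 0.03 for all tested genes at the level, and single values lay between -3.64 and 2.05. The libraries did not overlap for 55 of the 131, or 42.0%, 26 higher and 29 lower in PANC1OR. That share was 33.6% of all tested genes at the level and 27.2% of the 1715 other long non-coding RNA genes. The difference between these shares was not tested. Of these 55, 34 were not called.

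LINC00941 (ENSG00000285517, chromosome 12, 30795458 to 30879268, plus strand) had the highest CPM of the 10 higher genes and has been reported to promote invasion in colorectal and pancreatic carcinoma. It had 77.6, 79.7 and 47.9 CPM in PANC1OR and 22.0, 13.4 and 15.9 CPM in PANC1. Every PANC1OR library was above every PANC1 library, with PANC1OR replicate 3 the lowest of its line. The log2 fold change was 2.00 ± 0.27 (adjusted p = 0.00151, edgeR's quasi-likelihood test), and the gene was called in all 15 fits. The table pairs this symbol with an identifier that GENCODE release 44 lists without a symbol, and 6.61% of its exon bases are shared with the gene model that GENCODE names LINC00941. CAPRIN2, an RNA-binding protein gene on the opposite strand, overlaps the locus, and antisense reads cannot be told apart because no source used here states the strand setting of the counting.

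LINC01876 (chromosome 2, 156011530 to 156254950, minus strand) had the highest fold change of the 10. It had 6.55, 7.45 and 3.88 CPM in PANC1OR and 1.92, 0.686 and 1.64 CPM in PANC1. The groups did not overlap, and the log2 fold change was 2.05 ± 0.39 (adjusted p = 0.00788, edgeR). LINC02709 had 8.07, 6.18 and 8.0 CPM in PANC1OR and 2.36, 2.65 and 1.95 CPM in PANC1. All 3 PANC1OR libraries were above all PANC1 libraries, a log2 fold change of 1.68 ± 0.27 (adjusted p = 0.00363, edgeR). LINC01139, also known as LINK-A and described in breast cancer cells as a partner of AKT and HIF1A signalling, had 12.5, 11.7 and 9.43 CPM in PANC1OR and 4.47, 3.92 and 5.29 CPM in PANC1. The groups were apart, with a log2 fold change of 1.29 ± 0.22 (adjusted p = 0.00541, edgeR).

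LINC01998 averaged 3.46 ± 0.118 CPM in PANC1OR and 1.13 ± 0.406 CPM in PANC1 (log2 fold change 1.60 ± 0.31), and LINC01842 averaged 2.89 ± 0.256 CPM in PANC1OR and 1.06 ± 0.0308 CPM in PANC1 (1.45 ± 0.27). Both rose, with adjusted p-values of 0.00861 and 0.00792. LINC01278 had 36.7, 33.5 and 34.1 CPM in PANC1OR and 23.1, 17.5 and 22.0 CPM in PANC1, a separation without overlap and a log2 fold change of 0.74 ± 0.19 (adjusted p = 0.0305). LINC00662, reported as growth-promoting in several tumours, had 56.0, 61.1 and 33.1 CPM in PANC1OR and 29.7, 23.1 and 28.2 CPM in PANC1. PANC1OR replicate 3 was close to the PANC1 range, and the call (log2 fold change 0.89 ± 0.25, adjusted p = 0.0426, edgeR) was lost in 6 of the 15 fits, namely those that left out any single PANC1 culture, PANC1OR replicate 1 or PANC1OR replicate 2, and that with a replicate block. LINC00857, reported as growth-promoting in lung and bladder cancer, and LINC01273 complete the 10, at 0.86 ± 0.22 and 1.28 ± 0.30.

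The strongest decrease at 1 CPM in both lines was that of LINC02432 (ENSG00000248810, chromosome 4, 141302910 to 141357096, minus strand), which has 10 annotated transcripts. It had 1.06, 1.21 and 0.792 CPM in PANC1OR and 11.6, 11.9 and 15.2 CPM in PANC1. The groups were far apart, with a log2 fold change of -3.64 ± 0.27 (adjusted p = 8.71e-05, edgeR's quasi-likelihood test). Its PANC1OR mean of 1.02 CPM only just met the level. LINC02593 (chromosome 1, 916865 to 921016, minus strand) had 0.834, 1.27 and 2.46 CPM in PANC1OR and 9.58, 7.35 and 11.1 CPM in PANC1. PANC1OR replicate 3 was the highest of its line and still below PANC1, and the log2 fold change was -2.66 ± 0.42 (adjusted p = 0.00323, edgeR).

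LINC00310 (chromosome 21, 34157724 to 34190244, plus strand) had 1.44, 1.59 and 0.475 CPM in PANC1OR and 8.88, 4.31 and 7.43 CPM in PANC1. Every PANC1OR library was lower, a log2 fold change of -2.51 ± 0.43 (adjusted p = 0.00485, edgeR). LINC00839 had 5.72, 5.09 and 6.50 CPM in PANC1OR and 14.0, 16.2 and 16.0 CPM in PANC1. That decrease was -1.42 ± 0.23 on the log2 scale (adjusted p = 0.00369, edgeR) with no overlap. LINC01176 averaged 1.61 ± 0.293 CPM in PANC1OR and 4.98 ± 1.34 CPM in PANC1, and LINC02035 averaged 3.83 ± 1.19 CPM in PANC1OR and 10.7 ± 1.83 CPM in PANC1. Both fell, by log2 fold changes of -1.64 ± 0.29 and -1.47 ± 0.28.

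Among the genes of high CPM, LINC00205 (chromosome 21, 45288035 to 45297806, plus strand) fell. It had 30.9, 32.0 and 39.1 CPM in PANC1OR and 68.2, 64.8 and 64.4 CPM in PANC1. The 2 ranges were separated by more than the spread within either line, and the log2 fold change was -0.95 ± 0.20 (adjusted p = 0.0118, edgeR). POFUT2, an O-fucosyltransferase gene that starts 0.137 kb away on the opposite strand and runs away from it, averaged 52.7 ± 15.2 CPM in PANC1OR and 56.7 ± 0.515 CPM in PANC1 and was not called (log2 fold change -0.10 ± 0.25, adjusted p = 0.837). The LINC00205 call was lost in the 4 fits that left out PANC1 replicate 1, PANC1 replicate 3, PANC1OR replicate 1 or PANC1OR replicate 2, with an adjusted p of up to 0.0634. LINC02175, LINC01588, LINC00664 and LINC02976 complete the 11 lower genes, at log2 fold changes of -1.11, -1.04, -1.03 and -0.98. LINC00857, LINC00664 and LINC02976 lie outside the naming rule and were named after their values were seen.

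Calls that held in all 15 fits were those of LINC00941, LINC01139, LINC01876 and LINC02709 among the higher genes, and of LINC00310, LINC00839, LINC01176, LINC02035, LINC02432 and LINC02593 among the lower. These are 10 of the 21. The other 11 were all lost without PANC1 replicate 1, and 10 of those 11, all but LINC01998, without PANC1 replicate 3. All 21 were called without PANC1OR replicate 3, a fit in which 52 of the 131 were called (39.7%, against 44.1% of all tested genes), and also with GC offsets, where 47 were called.

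**Figure D2:**
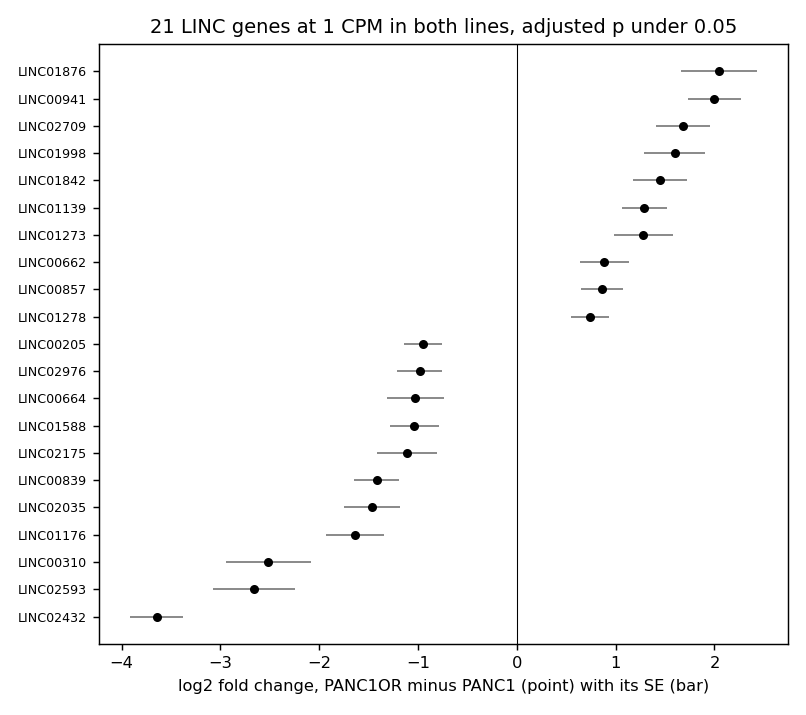
Log2 fold change, PANC1OR minus PANC1, of the 21 LINC genes at 1 CPM in both lines that were called, 1 row per gene, with the point at the estimate and the bar giving its SE. Values run between -3.64 for LINC02432 and 2.05 for LINC01876.

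The genes at 1 CPM in 1 line only were chosen by that difference, so their values are given without a test and nothing is read from their direction. Of the 30 at the level in PANC1OR only, 21 had libraries that did not overlap, and of the 31 in PANC1 only, 20. The background of no overlap was 35.8% of all tested genes, and of calls 17.8%.

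LINC02870 (ENSG00000180066, chromosome 10, 132444327 to 132449408, plus strand) had 0.644, 0.828 and 0.792 CPM in PANC1OR and 25.7, 28.9 and 23.7 CPM in PANC1. It was 34.6-fold lower in PANC1OR, and the libraries within each line lay close together. Per kilobase of exon it had 0.353 CPM in PANC1OR and 12.2 CPM in PANC1, the fifth highest value in PANC1. LINC03068, which starts 2.84 kb away by GENCODE and runs in the opposite direction, had 0.303, 0.318 and 0.871 CPM in PANC1OR and 3.83, 4.71 and 4.35 CPM in PANC1. It was 8.63-fold lower, with PANC1OR replicate 3 the highest of its line. PWWP2B, the nearest protein-coding gene to both, had 9.62, 10.5 and 36.0 CPM in PANC1OR and 40.7, 66.8 and 45.7 CPM in PANC1. Its libraries did not overlap, PANC1OR replicate 3 came close to PANC1, and the gene was not called (log2 fold change -1.44 ± 0.54, adjusted p = 0.115).

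LINC01843 (ENSG00000251169, chromosome 5, 134506552 to 134509230, plus strand) had 0.0379, 0.191 and 0.158 CPM in PANC1OR and 8.43, 17.3 and 9.26 CPM in PANC1. Its mean was 90.2-fold lower in PANC1OR, and PANC1 replicate 2 held the highest value. The PANC1OR values rest on few reads, so this ratio is imprecise, and no counting interval was computed for it. Its exons of 1108 bases gave 10.5 CPM per kilobase in PANC1. LINC00954 averaged 0.918 ± 0.288 CPM in PANC1OR and 5.32 ± 1.55 CPM in PANC1, a 5.80-fold lower level. LINC02236, LINC00173 and LINC01389 averaged 0.812, 0.820 and 0.391 CPM in PANC1OR, against 2.68, 2.49 and 2.22 CPM in PANC1.

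In the other direction, LINC02057 (ENSG00000249279, chromosome 5, 61201304 to 61304811, minus strand) had 6.48, 5.92 and 4.28 CPM in PANC1OR and 0.383, 0.686 and 0.630 CPM in PANC1. It was 9.81-fold higher in PANC1OR and had the highest CPM of the 30 genes at the level there only. LINC01694 (chromosome 21, 45590771 to 45603088) had 1.82, 1.78 and 3.01 CPM in PANC1OR and 0.0639, 0.0980 and 0.126 CPM in PANC1, a 23.0-fold higher mean. LINC02454 had 1.70, 1.97 and 1.74 CPM in PANC1OR and 0.255, 0.196 and 0.315 CPM in PANC1, 7.07-fold higher. None of these 3 genes had overlapping libraries.

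LINC02701 averaged 4.02 ± 0.618 CPM in PANC1OR and 0.981 ± 0.217 CPM in PANC1, and LINC03060 averaged 1.90 ± 0.343 CPM in PANC1OR and 0.322 ± 0.172 CPM in PANC1. LINC01816 averaged 2.77 ± 1.58 CPM in PANC1OR and 0.999 ± 0.585 CPM in PANC1, with its highest value of 4.59 CPM in PANC1OR replicate 3. LINC01473 had 1.63, 3.12 and 0.792 CPM in PANC1OR and 1.02, 0.294 and 0.882 CPM in PANC1. Its groups overlapped, although it was at the level in PANC1OR only.

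Reads were nearly absent from 1 line for 6 of the genes, at most 3 in the 3 libraries together. These were LINC00470 and LINC00958 in PANC1, and LINC00184, LINC00899, LINC01036 and LINC02970 in PANC1OR, named for this count after their values were seen except LINC02970. A floor of 3 reads over a line corresponds to 0.0548 CPM in PANC1OR and 0.0719 CPM in PANC1, and bounds and intervals cover counting error only. LINC00470 had 82 reads in PANC1OR and 0 in PANC1, at least 20.8-fold higher in PANC1OR. LINC00958, also known as BLACAT2 and described in bladder cancer, had 92 reads in PANC1OR and 3 in PANC1, a ratio of 23.4 (exact 95% interval 7.76 to 115.5). LINC01036 had 0 reads in PANC1OR and 70 in PANC1, at least 30.6-fold lower in PANC1OR. For the other 3 genes the ratio is PANC1 over PANC1OR. LINC02970 had 3 reads in PANC1OR and 88 in PANC1 (38.5, 12.7 to 190.1), and all 3 reads were in PANC1OR replicate 3, with 0 in replicates 1 and 2. Its fitted log2 fold change was -5.09 over all libraries, -8.21 without PANC1OR replicate 3 and -4.24 without PANC1OR replicate 1. LINC00899 had 2 reads in PANC1OR and 54 in PANC1 (35.4, 9.34 to 299.8), and LINC00184 had 3 reads in PANC1OR and 55 in PANC1 (24.0, 7.81 to 120.1).

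**Figure D3:**
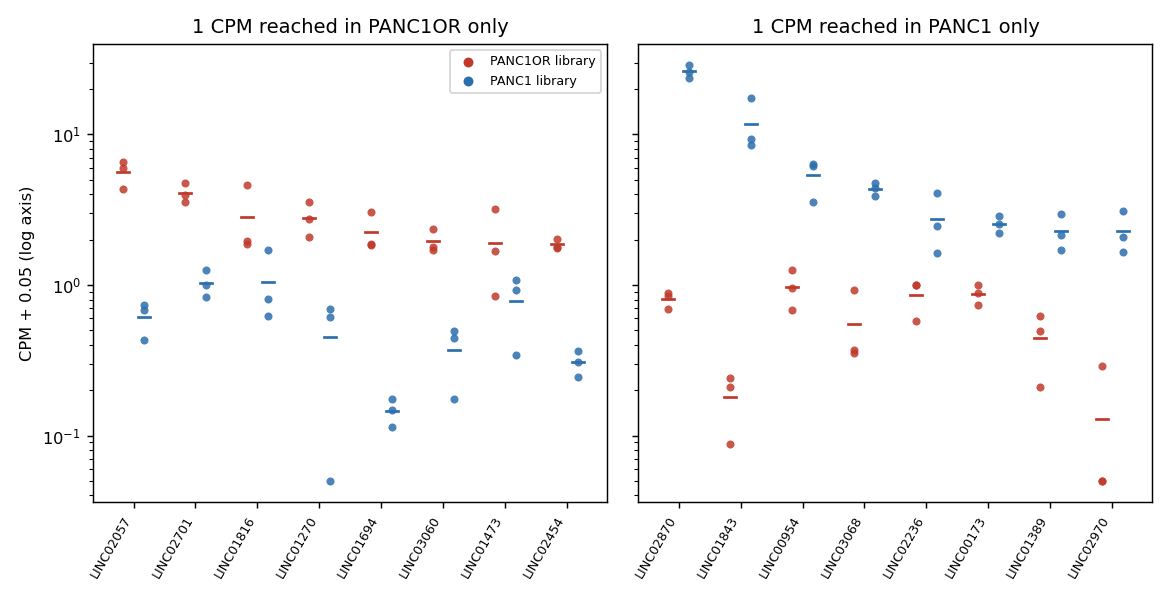
CPM plus 0.05 on a log axis in each of the 6 libraries for the genes of highest CPM at 1 CPM in PANC1OR only and in PANC1 only, with 1 point per library and a bar at the mean, PANC1OR left of PANC1 for each gene. LINC02870 and LINC01843 show the widest gaps by mean level among the genes of the PANC1 panel with over 3 reads in PANC1OR, at 34.6 and 90.2 times lower in PANC1OR. The LINC01843 ratio rests on few reads in PANC1OR.

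The expressed LINC genes lay close to protein-coding genes. A protein-coding gene was within 100 kb of 173 of the 192 (90.1%), against 60.4% of the LINC rows below 1 CPM, and the median gap was 8.87 kb against 60.1 kb. A divergent protein-coding start within 2 kb was found for 14 (7.29%) against 1.56%, and 30 (15.6%) overlapped a protein-coding gene against 5.95%. The expressed genes also had longer annotated exons (median 3515.5 against 1868.5 bases), more transcripts (4 against 2) and a higher GC content (48.6 against 44.7%). These are descriptions, and longer exons collect more reads at the same number of molecules.

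Of the 131 genes at 1 CPM in both lines, 98 had a nearest protein-coding gene within 100 kb that was also tested. Across these 98 pairs the log2 fold changes had a Pearson r of 0.38 and a Spearman rho of 0.39, and 64 pairs had the same sign. All pairs share the 6 libraries, neighbours share base composition, and 1 coding gene can be in several pairs, so the coefficient is a description. Pearson r was 0.40 over the 80 pairs that do not overlap and 0.15 over the 18 that do, and it was 0.47 over the 53 on the same strand and 0.30 over the 45 on opposite strands.

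The LINC gene was called in 18 of the 98 pairs, and in 4 of these the neighbour was called too, in the same direction. They were LINC01273 with CEBPB and LINC00941 with CAPRIN2, both higher in PANC1OR, and LINC00310 with MRPS6 and LINC02593 with SAMD11, both lower. Over all 98 pairs the neighbour was called higher in 6 and lower in 7, so most called neighbours lay beside a LINC gene that was not called. LINC00941 and CAPRIN2 overlap on opposite strands. Only for LINC00310 with MRPS6 did both calls hold in all 15 fits. For LINC genes at the level in 1 line only, just the neighbour's call is given, since the rule did not use the neighbour's level directly. In pairs with both genes tested, the neighbours of genes at the level in PANC1OR only were called higher in 0 of 24 and lower in 1, and those of genes at the level in PANC1 only were called higher in 0 of 23 and lower in 7. In all tested genes, 10.3% were called higher and 7.5% lower. Neighbours share libraries and base composition with LINC genes that were picked for a difference, so these counts are a description.

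CEBPB, a basic leucine zipper transcription factor of stress and inflammatory responses, lies 14.2 kb from LINC01273 (ENSG00000231742, chromosome 20, 50171809 to 50176676, plus strand). CEBPB had 46.0, 42.6 and 109.9 CPM in PANC1OR and 7.79, 13.3 and 10.1 CPM in PANC1. Every PANC1OR library was above PANC1, replicate 3 most, and the log2 fold change was 2.68 ± 0.45 (adjusted p = 0.00477, edgeR). LINC01273 itself had 3.41, 3.82 and 5.31 CPM in PANC1OR and 1.53, 1.86 and 1.76 CPM in PANC1, without overlap (1.28 ± 0.30, adjusted p = 0.0213). That call was lost with a replicate block and when any single PANC1 culture was left out.

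Around CEBPB lie 2 further LINC genes of the set and an antisense gene. LINC01275, whose start is 5.58 kb from that of LINC01273 on the opposite strand, had 1.17, 0.828 and 1.58 CPM in PANC1OR and 0.128, 0.0980 and 0.441 CPM in PANC1. LINC01270, whose start is 101.9 kb from that of CEBPB, had 2.69, 2.04 and 3.49 CPM in PANC1OR and 0.639, 0 and 0.567 CPM in PANC1, and 31.5% of its exon bases are shared with LINC01271 on the other strand. Both were at 1 CPM in PANC1OR only, and neither had overlapping libraries. CEBPB-AS1, antisense to CEBPB and not distinguishable from it without strand, averaged 3.16 ± 0.575 CPM in PANC1OR and 1.27 ± 0.229 CPM in PANC1 (log2 fold change 1.32 ± 0.31, adjusted p = 0.0221). That call was lost in 4 of the 15 fits (adjusted p up to 0.112), namely the replicate block and the fits that dropped PANC1OR replicate 2, PANC1 replicate 3 or PANC1 replicate 1. PEDS1, the nearest protein-coding gene to LINC01275, was not called (0.47, adjusted p = 0.192).

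SLCO4A1, which encodes an organic anion transporter, lies 39.1 kb from LINC02970 and had 22.5, 22.4 and 45.5 CPM in PANC1OR and 179, 174 and 185 CPM in PANC1. The lines were far apart, at a log2 fold change of -2.56 ± 0.33 (adjusted p = 0.0012, edgeR). TNS3, a focal adhesion tensin gene 25.9 kb from LINC01447, averaged 309.7 ± 68.9 CPM in PANC1OR and 873 ± 104 CPM in PANC1 and fell by 1.48 on the log2 scale (adjusted p = 0.00265). MRPS6, a mitochondrial ribosomal protein gene 14.7 kb from LINC00310, averaged 33.5 ± 9.83 CPM in PANC1OR and 79.6 ± 2.64 CPM in PANC1 (-1.26 ± 0.24, adjusted p = 0.0084). The calls of CEBPB, SLCO4A1, TNS3 and MRPS6 held in all 15 fits, as did that of TBX2.

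The other neighbours called lower beside genes at the level in PANC1 only were TBX2 beside LINC02875, NEBL beside LINC02643, JADE2 beside LINC01843, TENT4A beside LINC02236 and IRF2BP2 beside LINC00184, at log2 fold changes of -4.00, -1.65, -0.90, -0.69 and -0.66. TBX2, a T-box transcription factor gene, was named to complete these 7 after its value was seen. SAMD11, beside LINC02593, fell by 2.02 on the log2 scale. CAPRIN2, which overlaps LINC00941, averaged 203 ± 41.1 CPM in PANC1OR and 120.4 ± 18.5 CPM in PANC1 (0.75 ± 0.20, adjusted p = 0.0341). The calls of NEBL, JADE2, TENT4A, IRF2BP2, SAMD11 and CAPRIN2 held in 14, 9, 8, 8, 10 and 9 of the 15 fits. All of these but NEBL were lost whenever any single PANC1 culture was left out. JADE2 was close to the threshold with all libraries (adjusted p = 0.0494, edgeR). Beside the other named genes, NR4A2, a nuclear receptor gene 69.5 kb from LINC01876, averaged 3.50 ± 1.42 CPM in PANC1OR and 1.31 ± 0.648 CPM in PANC1 and was not called (1.39 ± 0.45, adjusted p = 0.0691). ZNF330, 68.2 kb from LINC02432, averaged 26.0 ± 3.27 CPM in PANC1OR and 16.5 ± 1.57 CPM in PANC1 and was not called either (0.65 ± 0.20, adjusted p = 0.0657), with a sign opposite to that of LINC02432.

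**Figure D4:**
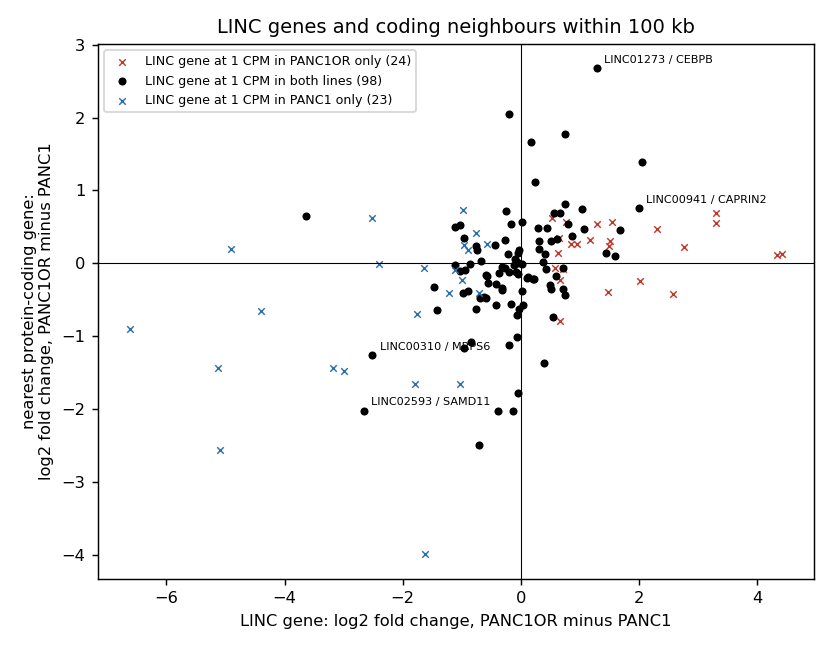
Log2 fold change of the nearest protein-coding gene (vertical axis) against that of the LINC gene (horizontal axis), PANC1OR minus PANC1, 1 mark per pair within 100 kb. Filled points are the 98 pairs whose LINC gene was at 1 CPM in both lines, with names on the 4 in which both genes were called, and crosses are pairs whose LINC gene was at the level in PANC1OR only (24) or PANC1 only (23), where the rule fixed the side of the horizontal axis.

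**Figure D5:**
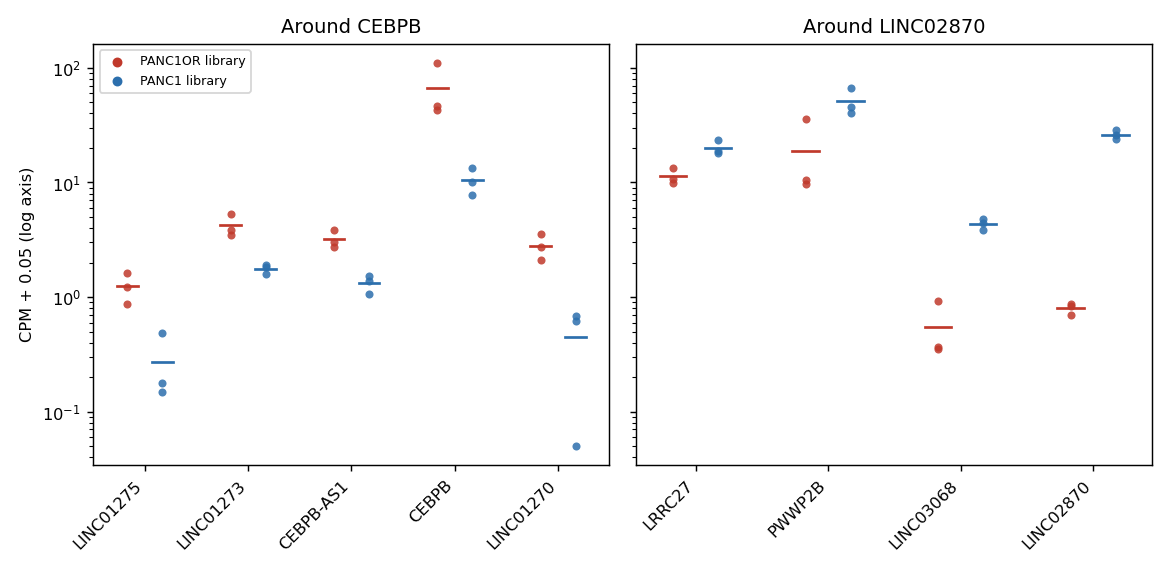
CPM plus 0.05 on a log axis in each library for the genes around CEBPB and around LINC02870, 1 point per library with a bar at the mean, PANC1OR left of PANC1. CEBPB has 42.6 to 109.9 CPM in PANC1OR and 7.79 to 13.3 CPM in PANC1, and LINC02870 has 0.644 to 0.828 CPM in PANC1OR and 23.7 to 28.9 CPM in PANC1.

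LINC genes also lay near each other. There were 19 pairs within 100 kb, among 32 of the 192 genes, 14 of them on opposite strands, and 16 pairs had the same sign of change. Some pairs overlap on opposite strands, where reads from shared bases cannot be told apart without strand. Some genes are in several pairs, so the count is a description. The signs of genes at the level in 1 line only were fixed by the rule. Of the pairs described above, LINC03068 with LINC02870 and LINC01275 with LINC01273 both hold such genes. Exons of 82 of the 192 genes overlapped those of another gene, 7 over most of their length, and near-identical copies elsewhere were found for 14.

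LINC00472, described as a tumour suppressor in breast cancer, is the host of 2 microRNA genes of the miR-30 family, MIR30A and MIR30C2. It had 23.9, 21.8 and 12.5 CPM in PANC1OR and 24.3, 15.8 and 22.2 CPM in PANC1. The groups overlapped, and no change was called (log2 fold change -0.10 ± 0.28, adjusted p = 0.861). The mature RNAs, which the libraries do not measure, are shown because the 5p forms share the seed GUAAACA. Sequences are from RefSeq (GRCh38.p14), 5′ to 3′, with the seed, bases 2 to 8, in capitals.
hsa-miR-30a-5p, chr6:71403595-71403616, minus strand: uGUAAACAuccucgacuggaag
hsa-miR-30c-5p, chr6:71377003-71377025, minus strand: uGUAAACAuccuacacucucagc
hsa-miR-30a-3p, chr6:71403554-71403575, minus strand: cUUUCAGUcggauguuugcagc
hsa-miR-30c-2-3p, chr6:71376964-71376985, minus strand: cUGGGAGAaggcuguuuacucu
The 3p forms have seeds of their own, UUUCAGU in miR-30a-3p and UGGGAGA in miR-30c-2-3p.

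The promoter windows were searched on both strands for 3 motifs, given with the share of all 27305 windows. TATAAA, the TATA box, was in 12 of the 133 windows (9.02%) and in 12.0% of all windows. TTGCNNAA, the core bound by C/EBP factors, was in 14 (10.5%) and in 10.6% of all, with 3 in the 19 windows of genes at the level in PANC1OR only (15.8%), 6 in the 21 of genes at the level in PANC1 only (28.6%) and 5 in the 93 of genes at the level in both lines (5.38%). The LINC02870 window is among the 6, and its match lies in the bases shared with the LINC03068 window, so the same stretch is counted for both genes. TGANTCA, the AP-1 site, was in 9 (6.77%) and in 7.76% of all. By the same classes, in the same order, TGANTCA was in 2, 0 and 7 windows and TATAAA in 0, 1 and 11. Differences between the classes were not tested. The LINC01273, LINC00941 and LINC01843 windows held none of the 3, which says only that these letters are not in those windows.

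Long non-coding RNAs with names of their own, a list of 28, gave 23 tested genes. Of these 5 rose in PANC1OR (LUCAT1, H19, CASC15, SNHG5 and MEG3, at log2 fold changes of 3.36, 2.04, 1.19, 0.99 and 0.89), MALAT1 fell (-1.05) and 17 were not called. Of all tested genes 17.8% were called, and of other long non-coding RNA genes at 1 CPM in both lines 11.0%. Apart from LUCAT1, the called genes had adjusted p-values of 0.0211 to 0.0293 (edgeR), and their calls in the other fits were not examined. The median log2 fold change of the 23 genes was 0.38, against -0.06 for the LINC genes at 1 CPM in both lines and 0.04 for all tested genes. The list was chosen with earlier results known, so these medians are a description.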

How the data were processed

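RNA from 3 PANC1OR and 3 PANC1 cultures was prepared with a messenger RNA kit, per the labels' protocols. The authors deposited raw read counts per gene in 1 table. Per the submitters' processing notes, the tools were FastQC 0.11.5, cutadapt, STAR 2.5 on GRCh38 and featureCounts from Subread 1.6.2. No source used here states the annotation release, strand setting or treatment of multi-mapping reads. Another 5 columns held no values.

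CPM is a count divided by the library total, times 1000000. The 192 genes have a LINC symbol and a mean of at least 1 CPM in either line, and 190 of them passed filterByExpr. All 18751 genes that passed were fitted with edgeR 4.0.16 (R 4.3.3), TMM factors and the quasi-likelihood F test, with Benjamini-Hochberg adjustment and an adjusted p under 0.05 called. The authors' likelihood ratio test was one of the alternatives, with DESeq2 1.42.0, no filter, GC offsets, a replicate block and libraries left out. The common biological coefficient of variation was 0.281. Tests were tried on simulated data. Positions are from GENCODE release 44, in which 58207 of 58735 identifiers were found. Errors of CPM are SDs over 3 libraries.

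Named genes are the 8 highest in each line, the 8 highest at the level in 1 line only, the 8 highest and 8 lowest fold changes among called genes at the level in both, those nearest the level, neighbouring pairs, and nearest protein-coding genes within 100 kb. The genes and lists were chosen with earlier results of these data known.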

Additional observations from a re-analysis of the deposited data

How the results depend on the processing

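The 40 LINC genes named for level or fold change kept their direction in the 15 fits, which the choice of most of them by fold or line fixes in part. Of the 192, up to 16 changed sign in a fit, the most without PANC1OR replicate 3, and 14 did without PANC1 replicate 2 and PANC1OR replicate 3. The number of the 131 LINC genes at 1 CPM in both lines called higher in PANC1OR, 10, was 6 with a replicate block, 22 with GC offsets, 16 with both and 26 without PANC1 replicate 2 and PANC1OR replicate 3, and 4 to 23 with 1 library left out. The number called lower, 11, was 7, 25, 20 and 43 under these settings, 17 with DESeq2's Wald test, and 6 to 29 with 1 library left out. Of all tested genes, 1939 were called higher and 1406 lower. The higher count was 3726 with GC offsets, 3239 with block and GC offsets, 5664 without the pair of libraries and 1103 to 4340 with 1 left out. The lower count was 922 with the block, 3496, 2988 and 5758 under the same settings, and 718 to 4323 with 1 left out. The cause of these shifts was not tested.

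The 21 calls were all kept without PANC1OR replicate 3, while 10 were kept without PANC1 replicate 1, 11 without PANC1 replicate 3, 15 without PANC1 replicate 2, 13 without PANC1OR replicate 1 or replicate 2, and 18 with no filter. No source used here states that the replicate numbers pair cultures, so they were not taken as pairs, and 13 calls were kept with the replicate block. Deviations from the line means correlated at 0.463, -0.445 and -0.217 between same-numbered cultures. The highest correlation, 0.512, was between PANC1OR replicate 3 and PANC1 replicate 2, the libraries that differed by base composition. These values therefore cannot show whether the numbers pair cultures. Of the 192 genes, 125 reached 2 CPM, and 192 to 197 genes reached 1 CPM with 1 library left out. Genes near 1 CPM rest on few reads.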
